A study of Mus musculus with 3 samples.

Results

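The 9 genes described here are widely used markers of Müller glia, the radial glial cells that span the retina: *Rlbp1*, *Glul*, *Slc1a3*, *Apoe*, *Aqp4*, *Kcnj10*, *Vim*, *Gfap* and *Clu*. They were chosen by name, though with earlier results of these data known. They were followed through every annotated cell type of 3 single-cell libraries of mouse retina, with the progenitors at P0 and in explants set against the Müller glia at P14. All 9 were listed in the raw count matrices of the 3 libraries, which hold 18823, 17851 and 17849 genes for explants, P0 and P14 and 19946 different genes in all. In the study, cells of several samples were tagged with lipid-anchored barcodes, pooled, and counted by unique molecular identifiers (UMIs, 1 per captured transcript) with a 10x Chromium 3′ kit. The explant library held wild-type CD1 retinas taken at E14 and grown for 6 days on Nuclepore membranes with 0, 5, 50 or 500 nM of a small-molecule Sstr2 agonist, 2 samples at each dose. The P0 and P14 libraries each held littermates of a mixed C57BL/6 / CD1 background from an *Sstr2* allelic series, untreated, with 1 +/+, 2 +/- and 2 -/- samples, where the -/- mice carry a targeted germline deletion of *Sstr2*. A sample is named below as 1 retina or 1 explant, although the number of retinas behind it is not given in the sources used here, and p-values measure the spread between samples.

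Müller glia are the last cell class to arise from retinal progenitors, and they keep part of the progenitor gene programme while they acquire the machinery of a supporting glial cell. *Rlbp1* encodes CRALBP, a carrier of 11-cis retinoids. *Slc1a3* encodes GLAST, which takes up glutamate released by neurons, and *Glul* encodes glutamine synthetase, which turns that glutamate into glutamine. *Kcnj10* encodes the inward rectifier potassium channel Kir4.1 and *Aqp4* the water channel aquaporin-4, which together handle potassium and water around active neurons. *Apoe* and *Clu* encode secreted lipid-carrying proteins, and *Vim* and *Gfap* encode intermediate filament proteins, of which Gfap is typical of retinal astrocytes and of reactive Müller glia.

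Promoter sequences are shown for *Apoe* and *Rlbp1*, which had the largest differences between Müller glia and P0 progenitors among the members with a promoter in the RefSeq tables used here, where 7 of the 9 had one. Each runs from 250 bases before to 50 bases after the annotated start on GRCm38.p6, on the minus strand of chromosome 7, at chr7:19699139-19699438 for the first of 3 *Apoe* starts and at chr7:79386978-79387277 for *Rlbp1*. By GENCODE M21, the *Apoe* gene covers chr7:19696109-19699188 and *Rlbp1* covers chr7:79374870-79387048. Capitals mark the match to the SOX site ACAAAG, here on the reverse strand as CTTTGT.
Apoe: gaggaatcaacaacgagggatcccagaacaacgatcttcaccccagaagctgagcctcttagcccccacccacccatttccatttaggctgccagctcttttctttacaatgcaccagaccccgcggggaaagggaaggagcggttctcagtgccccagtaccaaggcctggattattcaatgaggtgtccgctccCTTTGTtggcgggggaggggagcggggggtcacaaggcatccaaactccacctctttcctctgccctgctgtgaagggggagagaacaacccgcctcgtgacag
Rlbp1: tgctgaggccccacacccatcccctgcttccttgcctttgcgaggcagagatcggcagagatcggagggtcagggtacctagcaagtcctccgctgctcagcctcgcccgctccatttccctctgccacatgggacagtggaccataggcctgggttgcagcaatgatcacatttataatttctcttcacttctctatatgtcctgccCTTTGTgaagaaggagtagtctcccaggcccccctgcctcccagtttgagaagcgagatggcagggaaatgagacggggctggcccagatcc
Both promoters hold this motif, as do 18.7% of the 32851 RefSeq promoters of the same length, and the *Kcnj10* promoter holds it as well. The NFI core site TTGGCA occurred at the third *Apoe* start, against 14.1% of all promoters, and the LIM homeobox site TAATTA at the *Slc1a3* start, against 5.29%. The RBPJ site GTGGGAA, found in 6.38% of promoters, and the full NFI palindrome, found in 0.0365%, matched no member, and *Glul*, *Vim* and *Gfap* held no match to any of the motifs searched on either strand. GC content was 57.7% for *Apoe* and 57.3% for *Rlbp1*, against a median of 52.7%.

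The 18 samples held 304 to 1254 cells each, and between 1266730 and 10793649 UMIs. Explant cells held 1001 to 2499 genes each, P0 cells 1013 to 7324 and P14 cells 801 to 8002. Cells with more than 2499 genes were thus present only in the P0 and P14 libraries. The part of this upper limit in differences between explants and the other libraries was not tested. The authors' annotation gave 1691 primary progenitors of 5607 explant cells, 2797 of 5706 cells at P0, and 266 Müller glia of 3298 cells at P14. The median cell held 4548 UMIs among explant primary progenitors, 8759 among P0 primary progenitors, 15108 among Müller glia and 3374 among P14 rods. The Müller glia came as 76 cells from the +/+ retina, 53 and 14 from the +/- retinas, and 75 and 48 from the -/- retinas. For Müller glia and primary progenitors the annotation held against markers that are not members: in Müller glia all 6 genes of a second marker list were detected, with a summed level of 6166 to 8104 CPM (UMI counts scaled to a common total), and in primary progenitors the progenitor list summed to 4149 to 4877 CPM in explants and 5154 to 5522 CPM at P0. P0 photoreceptors also held progenitor genes, at 1074 to 1804 CPM in sum beside 1333 to 1611 CPM for photoreceptor precursor genes, and proliferation genes at 318 to 761 CPM. Transcripts of other types were present in the Müller glia, with all 5 rod genes detected at 1068 to 3198 CPM in sum, and with all 5 astrocyte genes at 234 to 739 CPM and all 6 microglia genes at 0 to 237 CPM over the retinas. A list of 5 endothelial genes summed to 1044 to 1401 CPM, mostly *Kdr* at 862 and *Flt1* at 321 CPM over the pooled cells, while *Cldn5*, *Pecam1* and *Esam* stood at 24.3, 4.24 and 3.67 CPM. Their part in the results was not tested, except where cells holding such genes were left out below. Between 4 and 9 cell barcodes were shared by any pair of libraries. *Sstr2* itself was not lower in the retinas labelled knockout. In P0 neurogenic progenitors, where it is expressed, it stood at 112 CPM in the +/+ retina, 189 and 248 CPM in the +/- retinas and 294 and 375 CPM in the -/- retinas, and at P14 it had 0 to 13 UMIs in a whole retina. The kit reads the 3′ end of a transcript, and whether that end lies inside the deletion is not given in the sources used here, so the genotypes below are those of the labels, and whether any labels were exchanged was not tested. *Xist*, a transcript of female cells, stood at 1269 and 1.83 CPM in the primary progenitors of the P0 +/- retinas and 3.06 and 1275 CPM in those of the -/- retinas, and at 2.80 and 1296 CPM in the Müller glia of the P14 +/- retinas, so the samples of each of these pairs differed in sex. The other retinas stood at 0 to 3.82 CPM.

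All 9 genes were higher in P14 Müller glia than in P0 primary progenitors, by factors from 2.87 for *Vim* to 2352 for *Clu*. For *Gfap*, 8 cells that also held *Pax2* and *S100b* carried 244 of the 255 UMIs in Müller glia, as described below. The genes fell into those that primary progenitors already carried at a clear level (*Vim*, *Glul*, *Slc1a3*, *Apoe* and *Rlbp1*), those at the edge of detection there (*Kcnj10*) and those that were essentially absent (*Aqp4*, *Clu* and, but for a single cell, *Gfap*). UMIs were summed per retina and compared by edgeR's quasi-likelihood test with genotype as a covariate. All 9 members were called higher at an adjusted p under 0.05, where 34.3% of the 12129 genes tested were called higher and 35% lower. Their median log2 fold change was 4.89, against -0.00 over all genes tested. Against explant primary progenitors, 8 of 8 members tested were called higher, with a median of 5.34, where 36.4% of 8336 genes were called higher and 34.3% lower. Both comparisons use the same Müller glia. Within primary progenitors alone, *Aqp4* was below the filter on low counts in the genotype fits at P0. In the dose fit of explants *Aqp4*, *Kcnj10*, *Gfap* and *Clu* were below it. Members that entered these tests through the Müller glia could hardly have been called lower, so their calls were partly fixed in advance. The same holds for genes of the lists below that were barely counted in progenitors. Age, library and cell type change together in the first, and cannot be told apart. In the second, strain, culture and the upper limit of genes per cell change as well, and these cannot be told apart either. The authors clustered the same counts and named the types by marker genes. The p-values for these Müller glia markers are therefore not independent of the annotation.

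**Figure D1:**
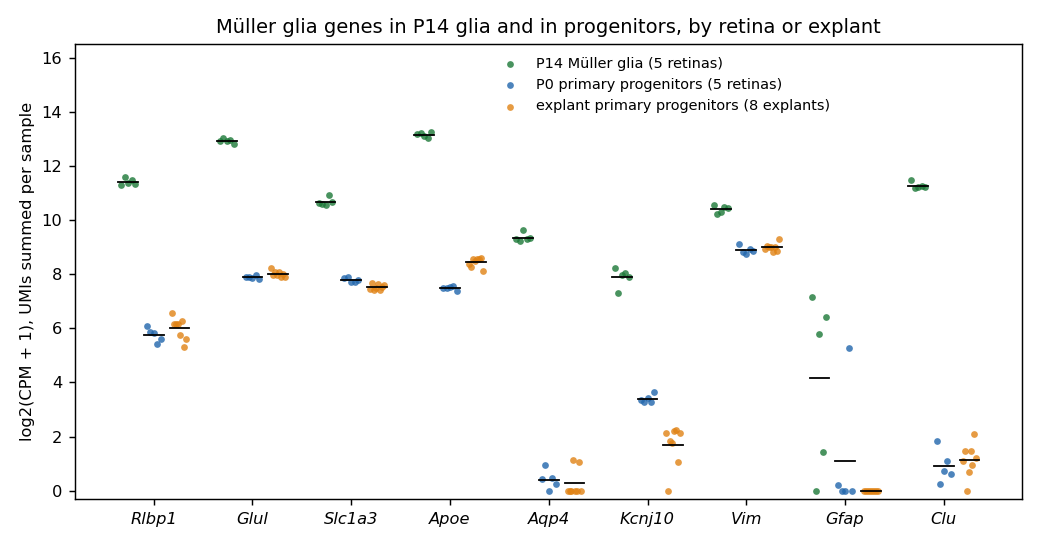
Level of each member in P14 Müller glia (green, 5 retinas), P0 primary progenitors (blue, 5 retinas) and explant primary progenitors (orange, 8 explants), as log2(CPM + 1) of UMIs summed per sample; black lines are group means. For every member except *Gfap*, all 5 Müller glia values lie above all 13 progenitor values, by the smallest margin for *Vim*.

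*Rlbp1*, the retinoid carrier, stood at 2553 CPM in the Müller glia of the +/+ retina, 2489 and 3050 CPM in the +/- retinas, and 2621 and 2843 CPM in the -/- retinas. In P0 primary progenitors it stood at 47.5 CPM in the +/+ retina, 67.0 and 57.3 CPM in the +/- retinas, and 56.5 and 41.4 CPM in the -/- retinas. Explant primary progenitors ranged from 38.8 to 92.7 CPM with a median of 70.2. The progenitor ranges overlapped each other and lay far below the glia. The log2 fold change was 5.51 (SE 0.11, adjusted p = 2.8e-16, edgeR) over P0 and 5.57 (SE 0.12, adjusted p = 8.1e-27) over explants. Thinned to 2000 UMIs per cell, 93.9% of Müller glia held an *Rlbp1* UMI, against 10.1% of P0 and 11.2% of explant primary progenitors. Amacrine cells of the same libraries gave 0.274% at P0 and 0.151% in explants, at medians of 7332 and 4742.5 UMIs. The progenitor shares lay above these. How much of the amacrine counts is free RNA was not tested. For *Slc1a3* in explants, amacrine cells stood at 49.6 CPM and neurogenic progenitors at 20.0 CPM. P14 rods, beside the Müller glia of their own library, gave 5.23%. Without thinning the shares were 96.6% of Müller glia, 34.9% of P0 and 20.8% of explant primary progenitors and 8.85% of rods, in cells of unequal depth.

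Among the genes of glutamate handling, *Glul* was the more abundant. It measured 7762 ± 373 CPM in Müller glia (SD, n = 5 retinas), 236 ± 10.3 CPM in P0 primary progenitors (n = 5) and 257 ± 20.5 CPM in explants (n = 8). The glutamate transporter gene *Slc1a3* measured 1627 ± 169, 221 ± 13.6 and 184 ± 13.0 CPM in the same groups. Over P0, *Slc1a3* differed by a factor of 7.33 and *Glul* by 32.2. The P0 values of *Slc1a3*, from 207 to 239 CPM, lay above all explant values, from 170 to 202 CPM. The log2 fold changes over P0 were 4.89 (SE 0.058) for *Glul* and 2.74 (SE 0.088) for *Slc1a3*. With cells thinned to 2000 UMIs, 33.4% of P0 and 27.6% of explant primary progenitors held an *Slc1a3* UMI, against 84.8% of Müller glia and 1.86% of rods. For *Glul* these shares were 37.4%, 39.3%, 99.2% and 17.5%. Bipolar cells, amacrine cells and cones at P14 had 20.7%, 22.7% and 14.0%. How much of the *Glul* shares outside Müller glia is free RNA was not tested. Amacrine cells had 5.00% at P0 and 8.76% in explants for *Slc1a3*, and 11.8% and 13.5% for *Glul*. Unthinned, P0 and explant primary progenitors had 76.4% and 47.2% for *Slc1a3* and 85.0% and 64.6% for *Glul*.

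The potassium and water channel genes were low or absent in progenitors. *Kcnj10* measured 240 ± 52.2 CPM in Müller glia, with the lowest value, 155 CPM, in the +/- retina that gave 14 Müller glia. Its P0 primary progenitor levels ranged from 8.78 to 11.4 CPM over the 5 retinas, and in explants from 0 to 3.72 CPM, without overlap. *Aqp4* stood at 641 CPM in the Müller glia of the +/+ retina, 631 and 601 CPM in the +/- retinas, and 784 and 622 CPM in the -/- retinas. In primary progenitors, 10 *Aqp4* UMIs were counted among 26662821 at P0 and 3 among 7518613 in explants. The ratio of the glial to the explant level was 1668 (570 to 8096, an exact interval at 95% that covers counting error only). After thinning, 0.0722% of P0 primary progenitors held an *Aqp4* UMI, beside 0.0681% of P0 amacrine cells, and such a share is not taken as expression in progenitors. Unthinned it was 0.322%. For *Kcnj10*, 1.87% of P0 primary progenitors held a UMI, against 0.573% in explants, 0.557% in rods and 36.5% in Müller glia, and unthinned 8.37% at P0 and 1.18% in explants. Amacrine cells of the same libraries had 0.156% at P0 and 0.0297% in explants after thinning.

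Of the secreted lipid carriers, *Apoe* was present in progenitors and *Clu* was not. *Apoe* was the most abundant member in Müller glia, at 9122 ± 644 CPM, and was present in primary progenitors at 179 ± 9.81 CPM at P0 and 349 ± 40.3 CPM in explants. The explant values, from 275 to 385 CPM, lay above all P0 values, from 163 to 190 CPM. For *Apoe*, as for *Slc1a3* and *Kcnj10*, library, strain, culture and the upper limit of genes per cell cannot be told apart in this difference between P0 and explants. At P0, 4 primary progenitors with 10 or more UMIs of microglia genes held 132 of the 4770 *Apoe* UMIs. *Clu* stood at 2352 CPM in the Müller glia of the +/+ retina, 2853 and 2328 CPM in the +/- retinas, and 2360 and 2448 CPM in the -/- retinas. In P0 primary progenitors it had 28 UMIs in all, of which 14 came from 1 cell. The fitted log2 fold change over P0 was 11.01 (SE 0.23) for *Clu*, the largest of the members, and 5.52 (SE 0.071) for *Apoe*. A *Clu* UMI was found, after thinning, in 89.7% of Müller glia, 0.116% of P0 primary progenitors, 0.239% of explant primary progenitors and 11.4% of rods. The progenitor shares lay below the 1.14% and 0.514% of amacrine cells in the same libraries.

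*Vim*, the filament gene that progenitors and glia share, differed least. Its Müller glia values were 1387 CPM in the +/+ retina, 1488 and 1208 CPM in the +/- retinas, and 1252 and 1425 CPM in the -/- retinas. P0 primary progenitors ranged from 431 to 558 CPM, and explants from 453 to 627 CPM with a median of 508. No progenitor value reached the lowest glial value. The log2 fold change was 1.37 (SE 0.092, adjusted p = 8.0e-10, edgeR) over P0 and 1.60 (SE 0.076, adjusted p = 7.4e-18) over explants. A UMI was found, after thinning, in 87.1% of Müller glia, 55.2% of P0 and 54.8% of explant primary progenitors, and 3.54% of rods. In the explant with the highest value, at 500 nM, 3 of 369 primary progenitors with many lens crystallin transcripts held 323 of the 937 *Vim* UMIs, and without them the level there was 418 CPM.

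*Gfap* was concentrated in a few of the cells. In Müller glia it stood at 84.3 CPM in the +/+ retina, 143 and 0 CPM in the +/- retinas, and 54.7 and 1.67 CPM in the -/- retinas, from 0 to 109 UMIs in a retina. Of its 255 UMIs, 244 came from 8 cells that also held 10 or more UMIs of *Pax2* and *S100b*, which mark retinal astrocytes. The other 258 Müller glia held 11 *Gfap* UMIs in 6 cells, or 3.28 CPM. The 8 cells came from 3 retinas, 4 from the +/+, 2 from a +/- and 2 from a -/- retina. These cells were low in some of the Müller glia genes: *Aqp4* was found in 1 of the 8 and stood at 10.5 CPM against 703 in the rest. *Rlbp1* stood at 545 against 2744 CPM, *Kcnj10* at 26.2 against 265 CPM and *Glul* at 2055 against 7906 CPM. Smaller differences were seen for *Apoe*, at 5857 against 9369 CPM, *Clu*, at 1510 against 2525 CPM, and *Vim*, at 996 against 1398 CPM. *Slc1a3* was nearly equal, at 1536 against 1629 CPM.

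**Figure D2:**
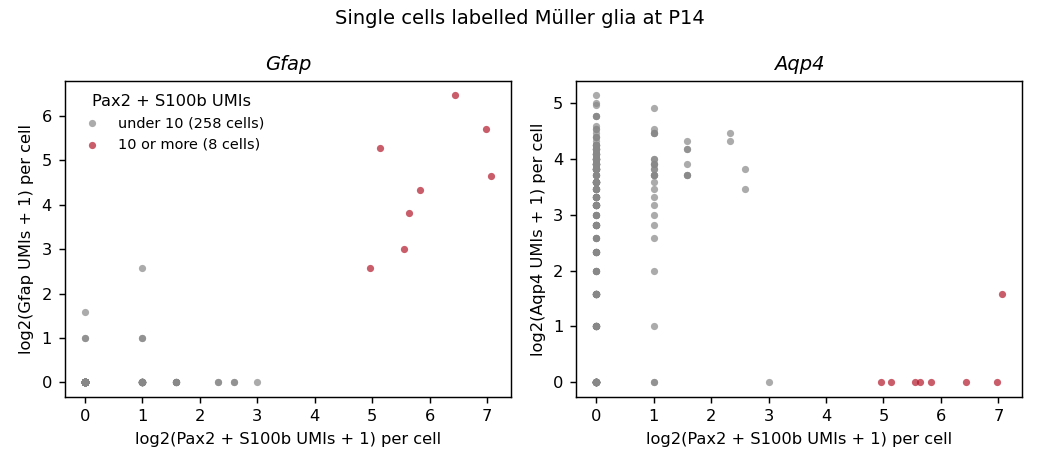
Each point is 1 of the 266 cells annotated as Müller glia at P14. The x axis gives log2 of the *Pax2* and *S100b* UMIs plus 1 and the y axis log2 of the UMIs plus 1 of *Gfap* (left) or *Aqp4* (right). The 8 cells with 10 or more *Pax2* and *S100b* UMIs (red) hold most *Gfap* UMIs and almost no *Aqp4*.

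In P0 primary progenitors *Gfap* had 198 UMIs, of which 196 lay in 1 cell of a -/- retina that also held 10 or more UMIs of *Pax2* and *S100b*. That retina stood at 37.7 CPM and the others at 0 to 0.172 CPM. In explants *Gfap* was not found in any cell type, and 0 of 1691 primary progenitors allows a share of cells with a UMI of up to 0.177%. Pooled over the Müller glia, the level was at least 180.5-fold higher than in explant primary progenitors, taking 3 counts over the whole group, or 0.399 CPM, as the limit there. That level is mostly that of the 8 cells above, and the other 258 Müller glia stood at 3.28 CPM. Over P0 the log2 fold change was 3.37 (SE 1.02, adjusted p = 0.00779, edgeR), on 5 retinas a side. The call was lost without the +/- retina of highest *Gfap* (log2 fold change 2.09, adjusted p = 0.0988), without the -/- retina that held the single P0 cell the value was 9.75, and by DESeq2 it was 7.69. Without cells holding genes of another type *Gfap* was below the filter on low counts.

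At P14 the members other than *Gfap* marked Müller glia sharply, with the exceptions below. Over the pooled cells of each type, rods held 0.694% to 2.67% of the glial level of the 8 members other than *Gfap*. The other types held at most 2.73%, except in 3 cases. As means over samples, amacrine cells stood higher, at 142 ± 189 CPM for *Clu*, 72.8 ± 136 for *Slc1a3*, 368 ± 761 for *Apoe* and 263 ± 166 for *Glul*. Each +/- retina gave only 4 amacrine cells. No test is given for differences between cell types of 1 library, because the authors' types were made by clustering the same counts. This also limits the tests of Müller glia against progenitors above. Cones held *Clu* at 9.81% of the glial level, and 34.7% of them had a UMI after thinning against 11.4% of rods. *Apoe* in bipolar cells stood at 4.62% of the glial level, but 6 cells with 10 or more UMIs of microglia genes held 1089 of the 1345 UMIs, and the rest stood at 82.2 CPM.

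*Vim* in amacrine cells stood at 129% of the glial level, with 1337 of 1371 UMIs in 8 cells. Those 8 cells held 10 or more UMIs of *Lhx1*, *Onecut1* and *Onecut2*, transcription factor genes of horizontal cells, which have no type of their own in the annotation. The other amacrine cells stood at 92.5 CPM.

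At P0 and in explants, primary progenitors were the highest of the 5 types for *Rlbp1*, *Glul*, *Slc1a3*, *Kcnj10* and *Vim*. Over samples they did not overlap with the next type, except for *Kcnj10* in explants. *Rlbp1* was the most restricted, with 53.9 ± 9.84 CPM in P0 primary progenitors against 14.2 ± 7.37 CPM in photoreceptors, the next type, and 64.9 ± 17.3 against 1.96 ± 2.10 CPM in explants. *Apoe* had another order: photoreceptors stood above primary progenitors, at 365 ± 76.5 against 179 ± 9.81 CPM at P0 and 459 ± 45.6 against 349 ± 40.3 CPM in explants, without overlap between samples. After thinning, 39.7% of P0 photoreceptors and 28.0% of P0 primary progenitors held an *Apoe* UMI, and in explants 42.2% and 41.2%. *Clu* was highest in RGCs at P0, at 25.1 ± 19.9 CPM, and in photoreceptors in explants, at 21.1 ± 5.73 CPM. Primary progenitors held 1.02 ± 0.939 and 1.35 ± 0.968 CPM. *Vim* stood at 477 ± 50.5 CPM in primary and 268 ± 21.3 CPM in neurogenic progenitors at P0, and at 510 ± 53.5 and 267 ± 64.8 CPM in explants. In explant amacrine cells, 372 of 473 *Apoe* UMIs came from 5 cells with 10 or more UMIs of microglia genes.

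**Figure D3:**
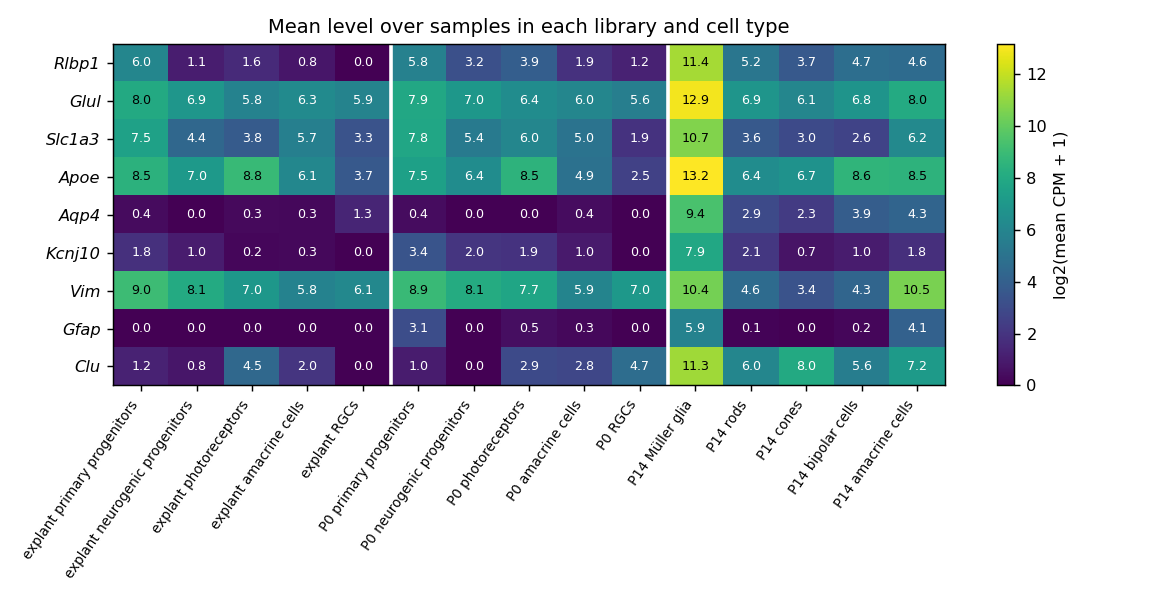
Mean level of each member over the samples of each library and annotated cell type, as log2(mean CPM + 1), with the value printed in each field; explants left, P0 middle and P14 right of the white lines. Müller glia hold the highest value of the P14 types for every member except *Vim*, where amacrine cells stand at 10.5 against 10.4. For *Gfap* the samples of Müller glia overlap with those of amacrine cells, and most UMIs lie in 8 cells with *Pax2* and *S100b*.

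Over the 15 means of library and cell type, on the log2(CPM + 1) scale, the members were alike to unequal degrees. Pearson's r was highest for *Glul* with *Kcnj10*, at 0.95, and lowest for *Vim* with *Clu*, at -0.0024. Among 6856 other genes that reached 50 CPM in some type, the closest to *Rlbp1* were *Cyr61* and *Ptch1*, both at 0.95. *Cyp2d22* was the closest to *Kcnj10*, at 0.98, and *Aldoc* to *Clu*, at 0.96. For *Aqp4* these were *Cav1* and *Bhlhe40*, both at 0.93, and for *Vim* *Sema5a* and *Slc30a10*, both at 0.92. *Glul* was closest to *Sntb1*, *Slc1a3* to *Mob3b*, *Apoe* to *Evi5* and *Gfap* to *Chrdl1*, at 0.95, 0.94, 0.92 and 0.93. The means share libraries, and the coefficients are a description. Those of *Gfap* rest on few cells. Its means in Müller glia and P0 primary progenitors came mostly from 8 cells and from 1 cell with *Pax2* and *S100b*. Its mean in P14 amacrine cells came from 1 UMI, and its explant means were 0.

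Other genes of the same roles moved with the members to differing degrees between P0 primary progenitors and Müller glia. Of 19 further genes of glutamate, potassium and water handling tested, 15 rose and none fell, with a median log2 fold change of 2.57. *Car14*, a carbonic anhydrase gene, went from 6.91 to 1027 CPM and *Dtna*, encoding a dystrobrevin, from 3.71 to 118 CPM. Of 20 other Müller glia markers tested, all 20 rose, with a median of 3.33, among them *Cryab*, *Mlc1* and *Dio2*, with log2 fold changes of 9.64 (SE 0.40), 9.54 (SE 0.34) and 9.23 (SE 0.25). Of the retinoid handling genes 5 of 11 were higher and 5 lower, close to the 34.3% and 35% over all genes tested. The genes of the retinoic acid-binding proteins *Crabp2* (-6.99, SE 0.77) and *Crabp1* (-5.30, SE 0.60) and of the retinoic acid-forming enzyme *Aldh1a3* (-5.34, SE 0.35) were lower in Müller glia, opposite to *Rlbp1*.

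Of the lipid and sterol transport genes 8 of 15 were higher and 6 lower, against the same shares over all genes. *Abca8b*, a lipid transporter gene, went from 0.817 to 119 CPM, while *Fabp5*, a fatty acid-binding protein gene, went from 371 to 7.22 CPM and *Lpl* from 7.74 CPM to 0 in all 5 retinas. Of 10 genes of intermediate filaments and reactive gliosis tested, 8 rose and 2 fell, with a median of 4.05. *Cebpd* went from 3.48 to 839 CPM, *Lgals3* from 0.0728 to 18.3 CPM and *Fgf2* from 0.423 to 15.7 CPM. Of 22 transcription factor genes shared by late progenitors and Müller glia, 15 rose and 2 fell, with a smaller median of 1.04. The largest were *Klf4*, from 16.2 to 557 CPM, *Nfic*, from 22.5 to 165 CPM, and *Hey2*, from 20.1 to 88.1 CPM. Against explant primary progenitors, 36.4% of all genes tested were higher and 34.3% lower. Of the glutamate, potassium and water handling genes 15 of 15 were higher, and of the other Müller glia markers 17 of 18. None of these were lower. Of the retinoid handling genes 3 of 7 were higher and 4 lower, and of the lipid and sterol transport genes 7 of 12 and 4. For intermediate filaments and gliosis these counts were 7 of 8 and 1, and for transcription factors 17 of 22 and 1. The median log2 fold change of the retinoid handling genes was 0.75 for the 11 tested over P0 and -0.51 for the 7 tested over explants. These medians cover different sets of genes.

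Primary progenitors with and without a UMI of *Mki67* or *Top2a*, which mark dividing cells, were compared, and 3 members were called in each library, of which DESeq2 called 1 in each. This split used no member. At P0, 2036 of 2797 primary progenitors held such a UMI and in explants 770 of 1691. Cells with a UMI were deeper, with a median of 10002 against 6751 UMIs at P0 and 4680.5 against 4427 in explants, and a deeper cell is more likely to be counted as dividing. UMIs were summed per sample and side, and each sample was its own block in edgeR's quasi-likelihood test. At P0, 16.8% of 10639 genes were called higher in cells with a UMI and 14.8% lower, and of 7 members tested 1 was higher and 2 lower. In explants, 10.8% of 7114 genes were called higher and 9.28% lower, and of 5 members tested none was higher and 3 lower.

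*Rlbp1* was lower in cells with such a UMI in both libraries. At P0 it stood at 70.6 ± 19.7 CPM without and 49.7 ± 7.78 CPM with such a UMI, lower in 5 of 5 retinas. In explants it ranged from 51.1 to 103 CPM without (median 71.7) and from 23.9 to 75.9 CPM with such a UMI (median 55.1), lower in 7 of 8. The log2 fold changes were -0.52 (SE 0.095, adjusted p = 4.1e-06, edgeR) and -0.54 (SE 0.14, adjusted p = 0.00182), and by DESeq2 the call was lost in explants (-0.57, adjusted p = 0.0928). *Slc1a3* went the other way at P0, from 197 ± 10.9 to 227 ± 15.9 CPM, higher in 5 of 5 retinas (0.19, SE 0.054, adjusted p = 0.00419, by DESeq2 0.148), and was not called in explants. *Apoe* was lower with such a UMI in 7 of 8 explants, at 314 ± 52.4 against 380 ± 31.3 CPM (-0.37, SE 0.072, adjusted p = 2.1e-05, edgeR), and was not called at P0. Whether these changes differed between the libraries was not tested. The call for *Clu* at P0 (-3.38, SE 0.76, adjusted p = 2.0e-04) rested on the cell that held 14 of its 28 UMIs, since without that retina *Clu* was below the filter, and by DESeq2 it was -0.40 (adjusted p = 0.973).

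**Figure D4:**
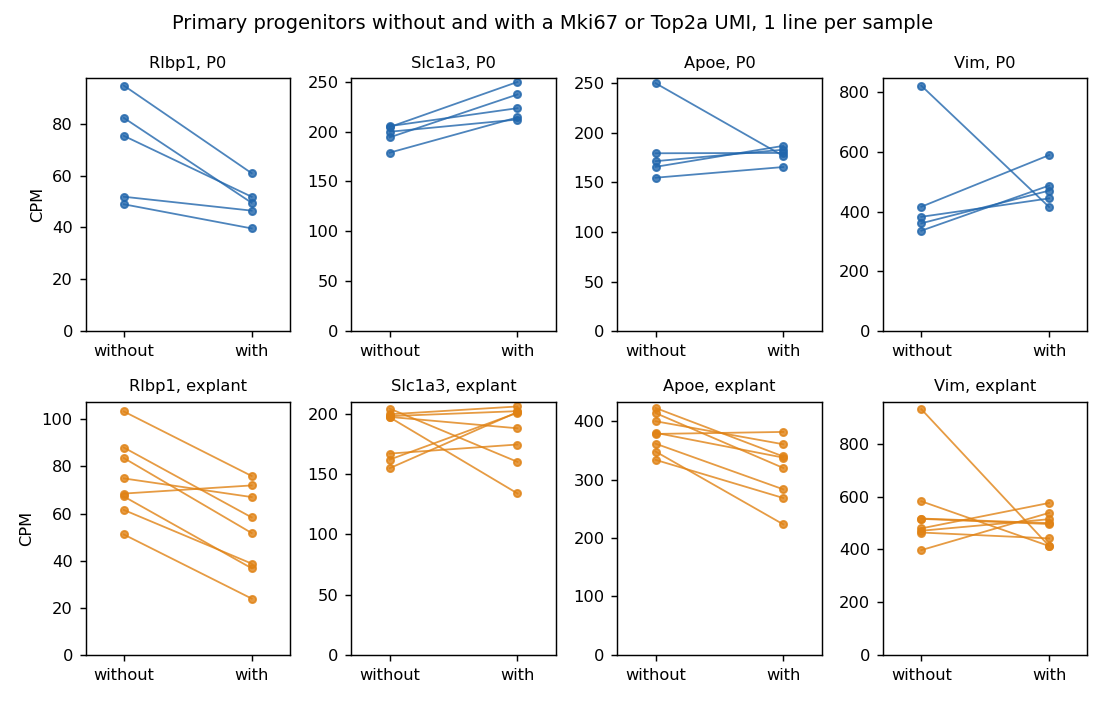
CPM of 4 members in primary progenitors without and with a UMI of *Mki67* or *Top2a*, with 1 line per retina (top, P0, 5 retinas) or explant (bottom, 8 explants); the y axes start at 0 and differ between panels. *Rlbp1* falls along 12 of the 13 lines, and the 2 steepest lines for *Vim* belong to the explant with lens crystallin cells and to the -/- retina with the *Gfap*-rich cell.

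*Vim* depended on a handful of cells. In explants it was called lower in cells with such a UMI (-0.25, SE 0.084, adjusted p = 0.0241, edgeR), but without the cells that held lens crystallin or other types' genes the value was -0.04 (adjusted p = 0.752), and the call was also lost without the second explant at 0 nM (-0.22) and by DESeq2 (-0.18). At P0 it was 0.07 (SE 0.078, adjusted p = 0.567, edgeR) over all cells and 0.38 (SE 0.042, adjusted p = 3.1e-16) without those cells, of which the *Gfap*-rich cell of a -/- retina held 491 *Vim* UMIs.

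The agonist series was used here to compare the primary progenitors of the explants between doses. Between 500 and 0 nM, 0.317% of 8514 genes were called in primary progenitors, and of 5 members tested only *Rlbp1* was called, lower at 500 nM. Without agonist the explants measured 92.7 and 69.8 CPM of *Rlbp1*. With 5 nM they measured 70.7 and 71.3, with 50 nM 52.3 and 75.3, and with 500 nM 38.8 and 48.2 CPM. The explants at 500 nM lay below all others, and the intermediate doses overlapped with 0 nM. The log2 fold change was -0.96 (SE 0.20, adjusted p = 0.0119, edgeR), with 2 explants against 2. The call was lost without either explant at 0 nM, with adjusted p of 0.642 and 0.0632, and by DESeq2, where the log2 fold change was -0.97.

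The share of primary progenitors with a *Mki67* or *Top2a* UMI was 36.4% and 38.5% at 0 nM and 38.6% and 42.2% at 5 nM. It was 48.8% and 41.9% at 50 nM, and 43.8% and 59.6% at 500 nM. The values at 0 nM were the lowest, and those at 50 nM overlapped with those at 5 and at 500 nM. A trend of this share with dose was not tested. In cells without such a UMI, *Rlbp1* measured 103 and 68.5 CPM with no agonist, 83.5 and 74.9 with 5 nM, 67.2 and 88.0 with 50 nM, and 51.1 and 61.5 with 500 nM. In cells with one it measured 75.9 and 71.9 CPM with no agonist, 51.7 and 67.0 with 5 nM, 36.8 and 58.4 with 50 nM, and 23.9 and 38.8 with 500 nM, so that 1 explant at 50 nM lay below 1 at 500 nM. The part of the dividing share in the *Rlbp1* result was not tested. *Xist* measured 1033 and 844 CPM without agonist, 1869 and 1072 with 5 nM, 1149 and 948 with 50 nM, and 2198 and 2221 CPM with 500 nM. The explants at 500 nM were thus the highest for *Xist*, and its part in the *Rlbp1* result was not tested. *Glul*, *Slc1a3*, *Apoe* and *Vim* had log2 fold changes between -0.21 and 0.06 and were not called.

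**Figure D5:**
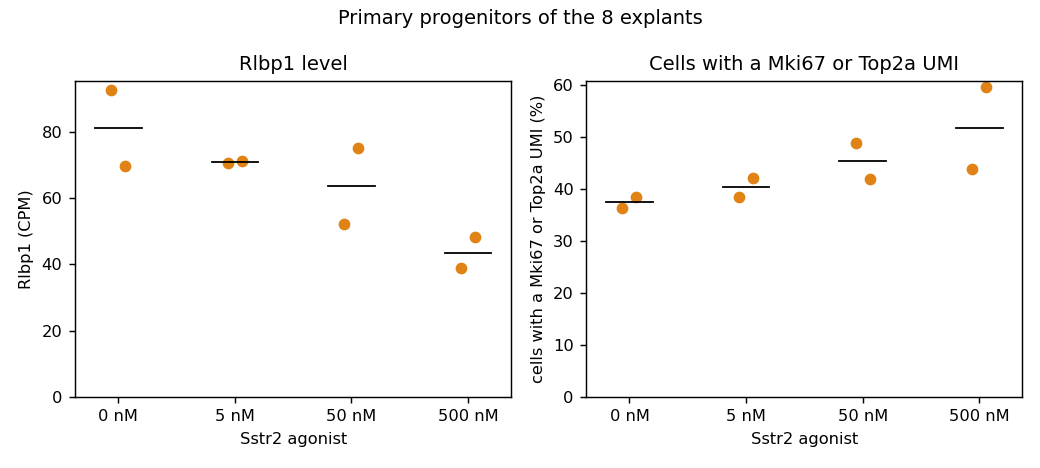
*Rlbp1* level in CPM (left) and percent of cells with a *Mki67* or *Top2a* UMI (right) in the primary progenitors of the 8 explants, by Sstr2 agonist concentration; points are explants and black lines means of 2. At 500 nM *Rlbp1* lies at 38.8 and 48.2 CPM, below the other 6 explants.

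The *Sstr2* allelic series was used here to compare Müller glia and primary progenitors between genotypes. *Sstr2* itself had 0 UMIs in the Müller glia of every P14 retina. In P0 primary progenitors it stood at 0.714 to 5.34 CPM, so these cells carried little or none of its transcript. No member was called in any comparison of genotypes by edgeR's quasi-likelihood test or by DESeq2, where few genes were called at all. In Müller glia 0.0567% of 8816 genes were called between retinas labelled knockout and wild type and 0.102% between knockout and heterozygous, with 9 members tested. *Gfap* was the only member at an unadjusted p under 0.05 in these, and in the P0 comparisons *Gfap* and, against heterozygous, *Slc1a3*. In P0 primary progenitors 0.0251% of 11939 genes were called against wild type and 0.00838% against heterozygous, with 8 members tested, *Aqp4* being below the filter. At an unadjusted p under 0.05 there were 275 and 288 genes at P14 and 462 and 428 at P0. With 2 retinas labelled knockout, 2 heterozygous and 1 wild type at each age, the wild type adds nothing to the estimate of spread.

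Apart from *Gfap*, the member estimates in Müller glia lay between -0.21 and 0.17 on the log2 scale. *Apoe*, for example, stood at 9815 CPM in the +/+ retina, 9269 and 9589 CPM in the +/- retinas and 8680 and 8258 CPM in the -/- retinas, a log2 fold change of -0.21 (SE 0.13, adjusted p = 1.00, edgeR) against wild type and -0.17 (SE 0.10, adjusted p = 1) against heterozygous. The values of the -/- retinas lay below the other 3, and the difference did not pass the test. *Gfap* had the widest estimates, -1.46 (SE 0.66, adjusted p = 1.00, edgeR) and -1.74 (SE 0.61, adjusted p = 1) in Müller glia, and the 3 retinas with *Pax2* and *S100b* cells were the 3 highest for *Gfap*. It passed the test against wild type without the first -/- retina (-5.51), and against heterozygous without that retina (-5.77) or without the second +/- retina (-2.27), and turned to 7.44 without the first +/- retina (adjusted p = 0.258). Its estimates in P0 primary progenitors, 9.67 (SE 3.81) and 7.42 (SE 2.23), rested on 1 cell, and they passed without the other -/- retina.

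Depth within the Müller glia moved with the members too. The 60 Müller glia under 5000 UMIs stood lower than the 206 deeper ones for all 9 members, at 663 against 1670 CPM for *Slc1a3*, 888 against 2545 CPM for *Clu* and 225 against 687 CPM for *Aqp4*. *Apoe* stood at 5661 against 9346 CPM. The differences were smaller for *Rlbp1*, at 1964 against 2656 CPM, *Glul*, at 5611 against 7685 CPM, and *Vim*, at 1001 against 1394 CPM. Of these shallow cells, 6 came from the +/+ retina, 6 and 5 from the +/- retinas and 29 and 14 from the -/- retinas.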

How the data were processed

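Single-cell RNA was counted in 18 multiplexed samples of mouse retina. For each of 3 libraries the authors deposited a matrix of raw UMI counts by gene and cell, with tables that give each cell's sample barcode, condition and cell type, and the submitters' processing notes name Cell Ranger 3.1.0, Seurat 3 and the build mm10. Deposited tables normalised by SCTransform were not used. The sample labels name the 3 libraries and the genotypes and doses in them, and each cell's own genotype or dose was taken from the deposited condition column, where the control at P0 and P14 was read as +/+. Sample barcodes carry no replicate numbers, so replicates are numbered in barcode order, and apart from pairs that differed in *Xist*, nothing in the sources used here says that samples of a group came from separate animals. The authors' cell types were kept.

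For each sample and annotated type the counts were added up and scaled to CPM with no pseudocount. These sums were tested with edgeR 4.0.16 in R 4.3.3 (filterByExpr, TMM, quasi-likelihood test, Benjamini-Hochberg adjustment over all genes tested, threshold 0.05), with DESeq2 1.42.0 as an alternative, and the fits were tested on simulated counts. Other alternatives were median-ratio size factors, no filter on low counts, leaving out each sample, and leaving out the 5% of cells with the highest Scrublet scores. Scrublet itself marked 7 cells at P0 (0.123%), 2 at P14 (0.0606%) and 115 in explants (2.05%), too few at P0 and P14 to be taken as working, so doublets were otherwise kept. Leaving out cells with 10 or more UMIs of microglia, astrocyte or vascular genes, or 50 or more of lens crystallins, and cells under 5000 UMIs, was chosen after seeing the data. Shares of cells were compared after thinning each cell to 2000 UMIs, which left out 18 Müller glia, 2 P0 and 49 explant primary progenitors and 296 rods. Intervals and limits from counts of 0 cover counting error only.

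The 9 genes and all gene lists were chosen with earlier results of these data known. The text names all 9, for each list the 3 genes with the largest change that passed in Müller glia against P0 progenitors, and for each member the 2 genes with the most similar levels over cell types. Some genes that this rule names are not reported here. Other genes named were chosen after their values were seen. Python 3.11.15, numpy 2.4.6, scipy 1.17.1, pandas 2.3.3, scanpy 1.11.5 and matplotlib 3.10.9 were used.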

Additional observations from a re-analysis of the deposited data

Results flagged for a closer look

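Some values stood apart from the rest of their group by Dixon's criterion, which marks about 5% of groups by chance. *Vim* in primary progenitors stood at 627 CPM in the second explant at 500 nM, against 519 CPM in the next of 8 explants. *Gfap* in P0 primary progenitors stood at 37.7 CPM in the second -/- retina, against 0.172 CPM in the next of 5 retinas. In Müller glia, *Slc1a3* stood at 1921 CPM in the second -/- retina (next 1605 CPM), *Aqp4* at 784 CPM in the first -/- retina (next 641 CPM), and *Clu* at 2853 CPM in the first +/- retina (next 2448 CPM).

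The *Apoe* estimates for labelled genotype had opposite signs at the 2 ages. Between knockout and heterozygous the log2 fold change was 0.043 (SE 0.069) in P0 primary progenitors and -0.17 (SE 0.10) in P14 Müller glia. The P0 estimate was smaller than its SE, and how often such a pattern arises by chance was not tested. The values of the 2 genotypes did not overlap at either age, neither change passed the test within its age, and the difference between the ages was not tested. At P0, 4 primary progenitors with microglia genes held 132 of the 4770 *Apoe* UMIs, and 1 with *Pax2* and *S100b* held 22. These cells lay in the first +/- and the second -/- retina, and whether the values stay apart without them was not tested.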

How the results depend on the processing

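The higher levels in Müller glia kept their direction under every alternative run in which a member was tested. Of the values of single members, 159 over P0 and 168 over explants kept their call, and 1, *Gfap* over P0, lost it. Without cells holding genes of another type, *Gfap* over P0 was below the filter on low counts and was not tested. The counts of genes called in the other comparisons moved. Between knockout and wild type in Müller glia, 5 genes were called, 1 by DESeq2, 43 with no filter, 2 without the highest Scrublet scores, 12 without cells with genes of another type, 2 in cells of at least 5000 UMIs and 30 to 51 without 1 retina, with 0 to 1 members called without 1 retina and 1 with no filter. Between knockout and heterozygous there, 9 were called, 5 with size factors, 1 by DESeq2, 34 with no filter, 2 without the highest Scrublet scores, 1 in cells of at least 5000 UMIs and 28 to 48 without 1 retina. The members called there were 1 with no filter and 0 to 1 without 1 retina, and *Gfap* ranged from -5.77 to 7.44. In P0 primary progenitors, 3 genes were called against wild type, 6 by DESeq2, 6 with no filter and 4 to 26 without 1 retina, and 1 against heterozygous, 2 by DESeq2, 2 with no filter and 3 to 29 without 1 retina, with 0 to 1 members without 1 retina in both. Between 500 and 0 nM, 27 were called, 2 by DESeq2 (0 members), 67 with no filter and 6 to 241 without 1 explant (0 to 1 members). For cells with against without a *Mki67* or *Top2a* UMI, 3363 were called at P0 and 1427 in explants, and by DESeq2 1522 and 711, with 1 member in each. *Vim* at P0 ranged from -0.047 to 0.38 without 1 retina. The causes were not tested.

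Each sample was the block in that split. With no replicate block, 2656 genes and 2 members were called at P0, with *Rlbp1* at -0.54 and *Slc1a3* at 0.18, and 1133 genes and 2 members in explants, with *Rlbp1* at -0.58, *Apoe* at -0.35 and *Vim* at -0.24, no longer past the threshold. No paired analysis was possible because the columns carry no replicate numbers in the comparisons of genotypes and doses. Knockout against wild type could not be fitted without the single wild type. Another thinning or none moved 28 shares of cells with a UMI by more than a set part of the range between samples, and 26 by no more than that part. Genes with few UMIs in progenitors, *Aqp4*, *Clu* and *Gfap*, are limited by depth.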

Other observations

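Over the same 15 means of library and cell type, the second most similar gene was *Vegfa* for *Apoe* (Pearson's r 0.91), *Adamts1* for *Slc1a3* (0.92), *Timp3* for *Kcnj10* (0.96), *Sec62* for *Clu* (0.92) and *Cyp2d22* for *Glul* (0.95). These coefficients are a description, since the means share libraries.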
